A study of Mus musculus with 6 samples.

Results

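The MHC class I presentation genes were 10 genes chosen by name and role, and all 10 had a row among the 34573 genes of the count table. They were the heavy chains H2-K1, H2-D1 and H2-T22, the light chain B2m, the peptide transporter chains Tap1 and Tap2, the loading factor Tapbp, and the immunoproteasome subunits Psmb8, Psmb9 and Psmb10. No measured value entered the choice rule, but the genes were chosen with earlier results of these data known. All 10 passed the filter on low counts that left 14004 genes to be tested. They were measured by RNA sequencing of polyA RNA from hematopoietic stem cells (HSCs) of adult bone marrow, isolated by flow cytometry. The study defines these HSCs as lineage-negative Sca-1+ c-Kit+ CD48- CD150+ cells. The cells came from Rpl22-/- mice (3 samples) and Rpl22+/+ mice (3 samples), with no treatment in either group. Rpl22 is a protein of the large ribosomal subunit. By the study's methods, both genotypes were young adults backcrossed to C57BL/6. The paper describes Rpl22 ablation in the germline, with the same reference that it gives for its Rpl22-/- mice. The sources used here name no Cre or other limit of this deletion to blood cells. They also do not say whether each sample came from its own mouse, so the p-values measure the spread between these samples.

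Class I molecules display short peptides from proteins made inside the cell to CD8+ T cells and NK cells, and nearly all nucleated cells carry them. The proteasome cuts proteins into peptides, the TAP transporter carries these into the endoplasmic reticulum, and tapasin, the product of Tapbp, holds the transporter next to empty heavy chains. A heavy chain generally leaves for the surface once it has bound both a peptide and beta-2-microglobulin, the product of B2m. Interferon raises most genes of the pathway, and it also brings in Psmb8, Psmb9 and Psmb10, which take the place of the catalytic subunits Psmb5, Psmb6 and Psmb7 in newly built proteasomes.

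Reads on genes numbered 9321123 to 13385850 per library, and the lowest total was that of Rpl22+/+ replicate 3. Rpl22 itself had 449 to 546 reads in the Rpl22-/- libraries and 5031 to 7001 in the Rpl22+/+ libraries, so each library matched its genotype label. All 12 of 12 HSC markers (among them Kit, Mecom and Slamf1) were expressed, and Fgd5 was the only one of them that passed the test, with a log2 fold change of -0.41. Hlf (-0.19, adjusted p = 0.21), Mecom (-0.17, adjusted p = 0.221) and Fgd5 were lower in every Rpl22-/- library than in any Rpl22+/+ library. Such a separation was found for 13.6% of all genes tested, and no HSC marker was separated in the other direction. Ms4a1, Cd3e and Siglech, which define B cells, T cells and plasmacytoid dendritic cells, had no reads in any library, but the summed B cell and the summed T and NK cell markers, mostly Cd79b and Nkg7, did not overlap between the genotypes and were higher in Rpl22-/- HSCs. The summed level of 7 megakaryocyte markers was higher in every Rpl22-/- library. It was 1050 to 1290 CPM (reads scaled to a common library size) in Rpl22-/- HSCs against 737 to 966 CPM in Rpl22+/+ HSCs. Of the 7, 5 (Pf4, Itga2b, Gp1bb, Gp9 and Gp5) passed the test, while Pf4 and Vwf overlapped between the genotypes and none of the 7 was at 0. Of all genes tested, 3.28% passed as higher in Rpl22-/- HSCs and 2.29% as lower. For 13.3% of them, taken singly, every Rpl22-/- library was above every Rpl22+/+ library. Sums over the neutrophil markers (16.2 to 22.6 CPM against 3.13 to 24 CPM) and the erythroid markers (30.5 to 36.6 CPM against 31.7 to 41.9 CPM) overlapped between the genotypes, although Camp of the first list rose (2.43, adjusted p = 0.0291) and Car1 of the second fell (-1.37, adjusted p = 0.0246).

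Positions are those of GENCODE on the GRCm38 (mm10) assembly. Of the 10 genes, 8 lie in the major histocompatibility complex on chromosome 17, within 2.13 Mb. Psmb9 (chr17:34181987-34187764, reverse strand), Tap1 (chr17:34187553-34197225), Psmb8 (chr17:34197721-34201454) and Tap2 (chr17:34203527-34216321, all 3 forward) follow each other within 34.3 kb. Tapbp (chr17:33915899-33929292, forward) and H2-K1 (chr17:33996017-34000347, reverse) lie before this cluster, and H2-D1 (chr17:35262730-35267499, forward) and H2-T22 (chr17:36037128-36042747, reverse) after it. B2m is on chromosome 2 (chr2:122147686-122153083, forward) and Psmb10 on chromosome 8 (chr8:105935735-105938444, reverse). All 10 are annotated as protein-coding, and the values below count reads over all of their exons.

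Promoter windows of 300 bases (250 before the RefSeq start and 50 from it onward, GRCm38.p6) were found for 9 of the 10 genes, all but Tap2. They were searched on both strands for 5 motifs known from class I promoters, which were chosen with these windows in view. The IRF core AANNGAAA, the letters that interferon regulatory factors read, was in 4 of the 9 windows (H2-K1, H2-D1, H2-T22 and B2m) and in 24.16% of the 27025 promoters of the same length. The enhancer A letters GGGGATTCCCC, of the kind bound by NF-kB, were in H2-K1 and H2-D1 and in only 6 of the 27025 promoters. The X2 core TGACG was in 6 of the 9 windows (those 4 genes, Tap1 and Psmb9) against 21.02% of all promoters, CCAAT in 7 of 9 against 37.92%, and the GC box GGGCGG in 4 of 9 against 35.91%. No hit overlapped a hit of another motif, and none of the 5 motifs was found in the windows of Psmb8 and Psmb10. Such matches describe letters and were not tested as binding sites.

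The stretches below show where these letters stand ahead of the 3 heavy chains, the light chain and Tap1. Each reads 5′ to 3′ on the strand of its gene, with capitals for the IRF core (either strand), enhancer A and X2 core, and CCAAT and GC boxes left in lower case. They lie at chr17:34000378-34000467 (H2-K1, reverse), chr17:35262922-35262951 (H2-D1, forward), chr17:36042853-36042942 (H2-T22, reverse), chr2:122147537-122147646 (B2m, forward) and chr17:34187457-34187486 (Tap1, forward). GENCODE has longer first exons that cover the H2-D1 stretch (an H2-D1 transcript) and the Tap1 stretch (a Psmb9 transcript), so only 30 bases of each are shown.
H2-K1: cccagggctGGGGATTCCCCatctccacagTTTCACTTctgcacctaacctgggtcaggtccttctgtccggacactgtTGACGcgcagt
H2-D1: tGGGGATTCCCCatctcctcagTTTCACTT
H2-T22: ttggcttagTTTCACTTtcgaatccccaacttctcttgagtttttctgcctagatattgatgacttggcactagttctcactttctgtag
B2m: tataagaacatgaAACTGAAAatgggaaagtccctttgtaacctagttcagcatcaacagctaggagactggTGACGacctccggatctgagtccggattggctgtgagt
Tap1: gcccagagacaggTGACGacagagggtcct
H2-K1 and H2-D1 share the enhancer A letters followed by an IRF core, while B2m has an IRF core and an X2 core but no enhancer A. Tap1 and Psmb9 start 226 bases apart on opposite strands, so the X2 core counted for each of them is the same run of letters, and so are their GC box and their CCAAT box.

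**Figure D1:**
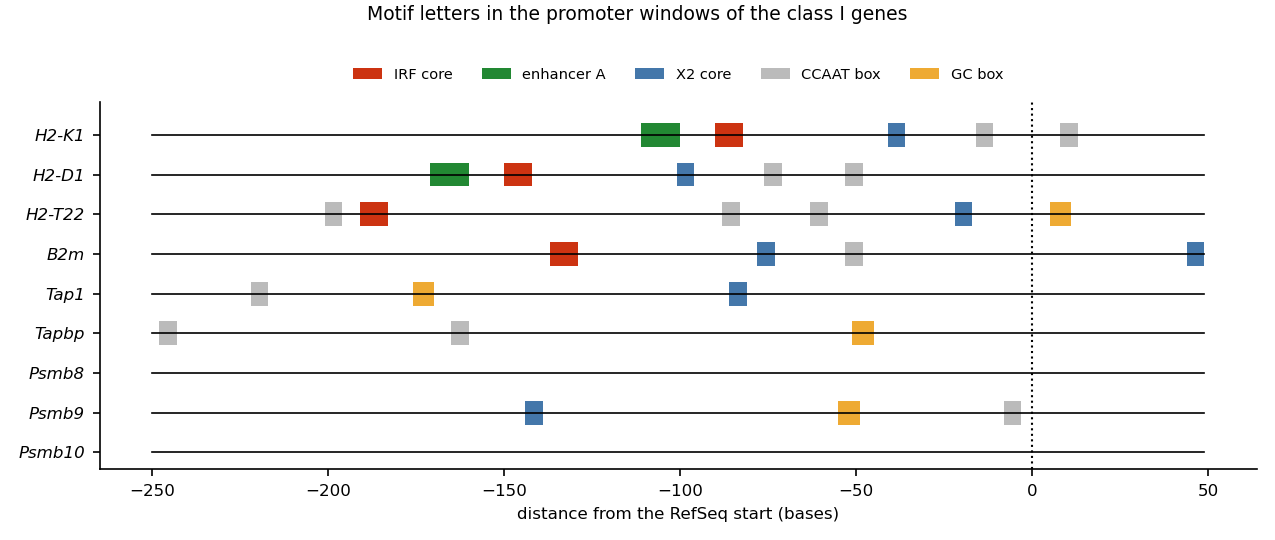
Position of each motif match (coloured boxes, either strand) in the promoter windows of 9 class I genes, with the distance from the RefSeq start in bases on the horizontal axis and the start as a dotted line. Only H2-K1 and H2-D1 hold enhancer A, and the IRF core is found in the 3 heavy chains and B2m.

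In Rpl22+/+ HSCs the class I genes covered a wide range of levels. Compared per length (CPM per kilobase of exon), B2m stood highest at 1910 ± 161 (SD, n = 3). H2-K1 at 407 ± 31.7 and H2-D1 at 309 ± 14.9, the classical heavy chains, came next, and the library ranges of these 3 genes did not overlap each other or those of any other member. Psmb10 at 44.3 ± 2.43, Psmb8 at 41.2 ± 1.65 and Tap2 at 40.8 ± 3.68 followed with ranges that overlapped. Below them, Tapbp at 33.4 ± 0.986, Tap1 at 33.1 ± 2.55 and H2-T22, a nonclassical heavy chain, at 32.2 ± 0.84 overlapped as well. Psmb9 was lowest at 26.2 ± 1.28, with every library under those of the others. These lengths count all annotated exons of a gene, 3660 bases for Psmb9 and 3628 for Tapbp. The longest coding transcripts have 1352 bases for Psmb9 and 2898 for Tapbp. The order of the genes below H2-D1 therefore depends on the length used. The 10 genes together took 0.441% to 0.469% of the reads on genes in the Rpl22+/+ libraries and 0.590% to 0.600% in the Rpl22-/- libraries.

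All 10 genes were measured higher in Rpl22-/- HSCs, and for all 10 each Rpl22-/- library was above each Rpl22+/+ library on the CPM scale, a separation found for 13.3% of all genes tested. CPM values were scaled with edgeR's TMM factors, and the genotypes were compared with edgeR's quasi-likelihood test, adjusted over all 14004 genes by Benjamini-Hochberg. At an adjusted p below 0.05, 4 of the 10 rose (B2m, Tap1, Psmb9 and Psmb10), against 5.57% of all genes called in either direction, 3.28% called higher and 2.29% called lower. The unadjusted p was below 0.05 in 9 of the 10, all but H2-K1, against 11.6% of all genes higher at that level. The median log2 fold change of the 10 was 0.29, and that of all genes tested was -0.0068. In RNA of sorted cells, more cells of a kind and more RNA per cell cannot be told apart, and the part of the megakaryocyte markers, whose sum was also higher in every Rpl22-/- library, was not tested.

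**Figure D2:**
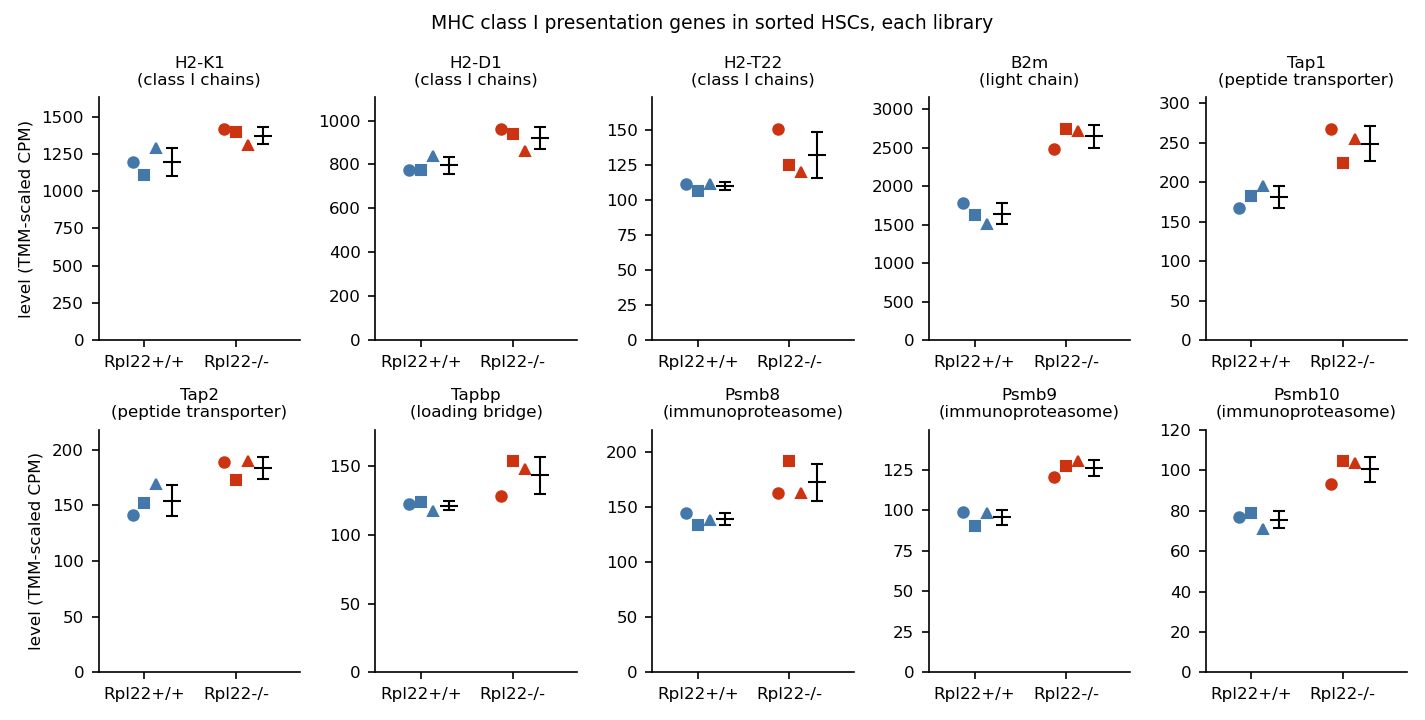
Level of each of the 10 class I genes in CPM (vertical axes, each from 0) in the 3 Rpl22+/+ and 3 Rpl22-/- libraries, with circles, squares and triangles for replicates 1, 2 and 3 and bars for the mean ± SD. In each panel the 3 Rpl22-/- points lie above the 3 Rpl22+/+ points, by the most in B2m.

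B2m encodes the light chain of class I molecules. Its level was 2479, 2742 and 2721 CPM in Rpl22-/- replicates 1, 2 and 3, and 1788, 1629 and 1512 CPM in Rpl22+/+ replicates 1, 2 and 3. The lowest Rpl22-/- library was thus well above the highest Rpl22+/+ library. The means were 2647 ± 146 and 1643 ± 139 CPM (SD, n = 3 each), a 1.61-fold difference. On the log2 scale the change was 0.69 (standard error 0.101), with an adjusted p of 0.00237, and by p-value B2m ranked 29th of 14004 genes. B2m was called under all 17 other ways of processing the counts, between 0.58 with the trend of each library on gene length removed and 0.82 with the trend on GC content removed. Its exons are shorter and poorer in G and C than those of the other 9 genes, with 860 bases and 41.2% GC against 1705 to 5476 bases and 51.4% to 57.3%. No window of 50 bases of its transcript occurs in another annotated gene.

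The heavy chains H2-K1 and H2-D1 bind the peptides that classical class I molecules present. H2-K1 had 1416, 1395 and 1306 CPM in the Rpl22-/- libraries and 1192, 1106 and 1291 CPM in the Rpl22+/+ libraries. The nearest libraries, Rpl22-/- replicate 3 and Rpl22+/+ replicate 3, were almost level. Its log2 fold change was 0.20 (standard error 0.0957) and did not pass, with an adjusted p of 0.237. H2-D1 measured 961, 939 and 863 CPM in Rpl22-/- HSCs and 773, 774 and 840.1 CPM in Rpl22+/+ HSCs, and here too replicate 3 of the 2 genotypes lay closest. The log2 difference of H2-D1 was 0.21 (standard error 0.0910, adjusted p = 0.185). Both genes kept a positive value under the 17 alternatives, from 0.09 to 0.26, and neither was called under any of them.

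H2-T22 is a nonclassical heavy chain known as a ligand of some gamma-delta T cells. It stood at 151, 125 and 120.2 CPM in Rpl22-/- HSCs and at 112, 107 and 112 CPM in Rpl22+/+ HSCs, with Rpl22-/- replicate 1 apart from the others. Its log2 difference was 0.27 (standard error 0.0939), not called at an adjusted p of 0.104, and lay between 0.16 and 0.33 under the alternatives, lowest without Rpl22-/- replicate 1. Of its 50-base windows, 44.74% occur in other genes, 37.91% in H2-T10 alone, so its reads are uncertain. H2-K1 shares 8.79% of such windows with other genes and H2-D1 14.32%. Antisense gene A930015D03Rik also covers 29.38% of the exonic length of H2-T22, and it had 85 to 213 reads per library.

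Because near-identical heavy chains can trade reads, the reads of 22 listed heavy chain genes with a row were added up and fitted as a single gene. They were these 3, the other listed H2-K, H2-Q, H2-T and H2-M genes, H2-Bl, Cd1d1 and Mr1. H2-Q8, H2-Q9 and H2-T9 had no matched row, and class I genes outside the list were not added. The sum was 4913, 4281 and 4475 CPM in the Rpl22-/- libraries and 3839, 3678 and 4141 CPM in the Rpl22+/+ libraries, which did not overlap. The log2 fold change of the sum was 0.23 (standard error 0.104), and its adjusted p of 0.206 did not pass. Over 12 alternatives it stayed between 0.18 and 0.28 with adjusted p-values of 0.171 to 0.501.

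A ratio of light to heavy chain reads, which needs no scaling between libraries, was computed after the single values had been seen. B2m reads per kilobase over those of H2-K1 plus H2-D1 came to 3.37, 3.8 and 4.06 in Rpl22-/- HSCs and 2.95, 2.80 and 2.30 in Rpl22+/+ HSCs. The means were 3.74 ± 0.347 and 2.68 ± 0.341 (SD, n = 3 each), 1.40-fold apart. All 3 Rpl22-/- libraries were above all 3 Rpl22+/+ libraries, and the exact two-sided permutation p was 0.1, the smallest that 3 libraries against 3 allow.

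**Figure D3:**
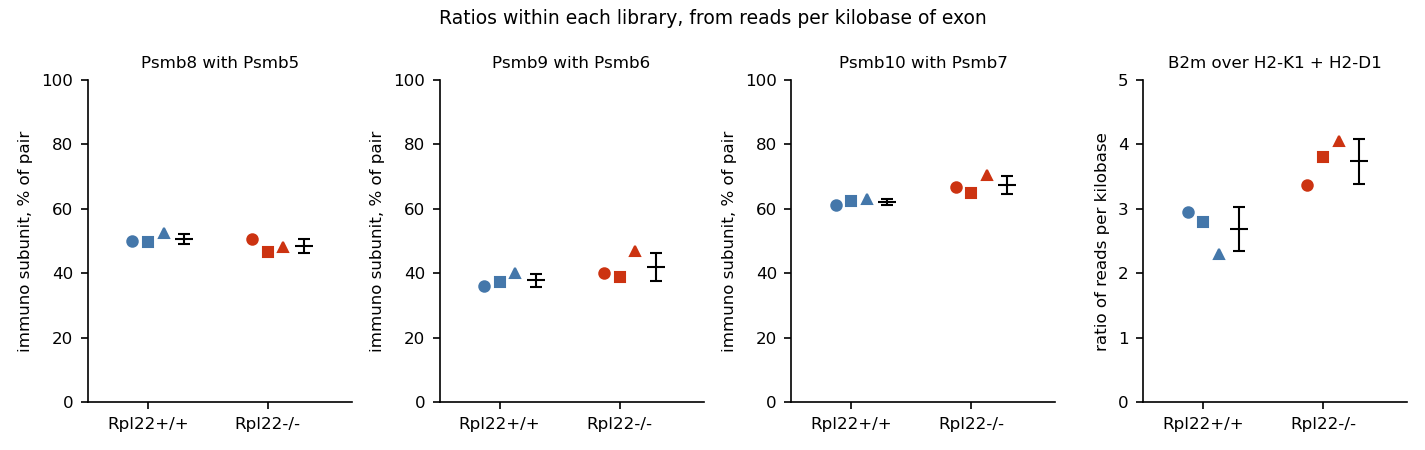
Percent of each catalytic pair held by the immunoproteasome subunit (first 3 panels) and the ratio of B2m to H2-K1 plus H2-D1 (last panel), from reads per kilobase of exon in each library, with bars for the mean ± SD of 3 libraries. The B2m ratio and the Psmb10 share separate the genotypes, and the Psmb8 and Psmb9 shares overlap.

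Tap1 and Tap2 form the transporter that pumps peptides from the cytosol into the endoplasmic reticulum. Tap1 rose from 167, 182 and 195 CPM in the Rpl22+/+ libraries to 267, 224 and 254 CPM in the Rpl22-/- libraries, with no overlap. The means were 181 ± 13.96 and 249 ± 22.1 CPM (SD, n = 3 each), 1.37-fold apart, which is 0.46 on the log2 scale (standard error 0.0930) with an adjusted p of 0.0131. The call was lost without Rpl22-/- replicate 3 (adjusted p = 0.0656), Rpl22+/+ replicate 1 (0.0883) or Rpl22+/+ replicate 2 (0.0550), while the log2 value stayed between 0.38 and 0.53 over the 17 alternatives.

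Tap2, the partner of Tap1, did not pass. Its libraries were at 189, 173 and 189.5 CPM in Rpl22-/- HSCs and 142, 152 and 169 CPM in Rpl22+/+ HSCs, the closest being Rpl22-/- replicate 2 and Rpl22+/+ replicate 3. That is a log2 difference of 0.25 (standard error 0.0890, adjusted p = 0.102), and no alternative called it. Tapbp likewise missed the threshold, at 128, 153 and 148 CPM in Rpl22-/- HSCs against 122, 124 and 117 CPM in Rpl22+/+ HSCs. Its log2 difference of 0.24 (standard error 0.0880) had an adjusted p of 0.119, and without Rpl22-/- replicate 1, the lowest of its group, it was 0.32 with an adjusted p of 0.0233.

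Psmb8, Psmb9 and Psmb10 encode the 3 catalytic subunits of the immunoproteasome. Psmb9 was at 120.5, 127 and 130.2 CPM in the Rpl22-/- libraries and at 98.9, 90.4 and 98.1 CPM in the Rpl22+/+ libraries. These groups lay far apart next to their spread, with means of 126 ± 4.99 and 95.8 ± 4.70 CPM (SD, n = 3 each), and Psmb9 rose by a log2 value of 0.40 (standard error 0.0824, adjusted p = 0.0143). Psmb10 was at 93.3, 104.5 and 104 CPM against 76.7, 79.0 and 71.0 CPM, and it rose by 0.41 (standard error 0.0868, adjusted p = 0.0153). In linear terms the rises were 1.32-fold and 1.33-fold. Neither call held without Rpl22-/- replicate 3 (adjusted p = 0.0690 for Psmb9 and 0.0743 for Psmb10) or Rpl22+/+ replicate 1 (0.0604 and 0.0673), and each was also lost without 1 further library, Rpl22+/+ replicate 2 for Psmb9 (0.0814) and Rpl22+/+ replicate 3 for Psmb10 (0.0728).

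Psmb8 fell just short of the threshold. It had 163.5, 192 and 163 CPM in Rpl22-/- HSCs and 145, 134 and 139 CPM in Rpl22+/+ HSCs, so that the groups were apart but Rpl22-/- replicate 2 was well above its own group. On the log2 scale the difference was 0.31 (standard error 0.0888), with an adjusted p of 0.0535, and 4 of the 17 alternatives called it. An antisense gene, Gm20496, covers 14.73% of the exonic length of Psmb8 and 4.36% of that of Tap2. Gm20496 had 1442 to 1565 reads in the Rpl22-/- libraries and 815 to 1131 in the Rpl22+/+ libraries, and it rose by 0.49 on the log2 scale (adjusted p = 0.00780). The strand setting of the counting is not given in the sources used here, so reads of such overlapping pairs cannot be assigned with certainty. The same holds for Tap1 and Psmb9, whose exons overlap by 212 bases on opposite strands, and for Tapbp, of which antisense gene Gm19412 covers 24.92%.

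**Figure D4:**
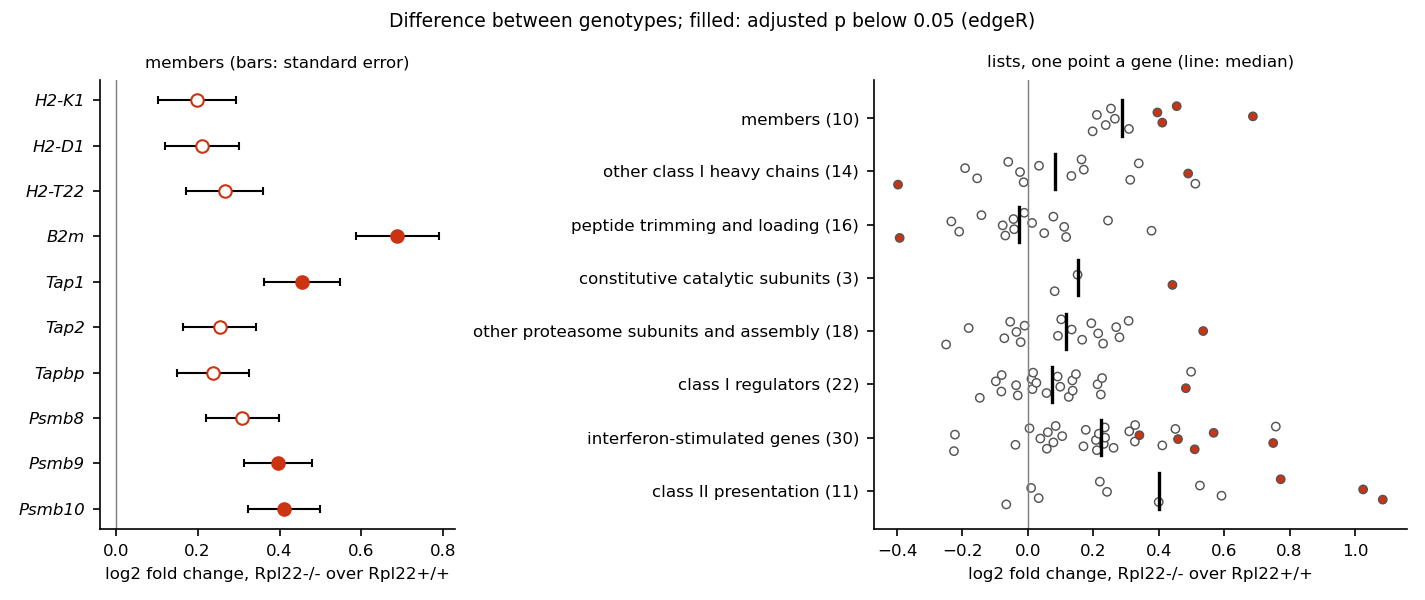
Log2 fold change of Rpl22-/- over Rpl22+/+ HSCs for the 10 class I genes with standard errors (left) and for every tested gene of the class I lists with the median of each list as a line (right), where filled points have an adjusted p below 0.05 in edgeR. All 10 class I genes lie right of 0, with B2m at 0.69, and the list medians run from -0.03 for peptide trimming and loading to 0.40 for class II presentation.

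The share of each catalytic pair held by the immunoproteasome subunit was taken within each library, per length. Psmb8 held 50.8%, 46.6% and 48.3% of its pair with Psmb5 in Rpl22-/- HSCs and 50.2%, 49.6% and 52.4% in Rpl22+/+ HSCs, a difference of -2.21 percentage points (exact two-sided permutation p = 0.3). Psmb9 held 40.0%, 39.0% and 46.9% of its pair with Psmb6 against 36.1%, 37.3% and 40.1%, a difference of 4.15 points (exact permutation p = 0.3). Both of these pairs overlapped between the genotypes. Psmb10 held 66.8%, 65.0% and 70.4% of its pair with Psmb7 against 61.1%, 62.4% and 63.1%, with no overlap. That difference was 5.21 points, and its exact permutation p of 0.1, the smallest possible here, was 0.3 after Benjamini-Hochberg adjustment over the 3 pairs, as it was for the others. The level of each share depends on the exon lengths used, such as 3381 bases for Psmb8 and 899 for Psmb5. Without division by length, the mean shares in Rpl22-/- and Rpl22+/+ HSCs were 78% and 79.5% for Psmb8 and 58.5% and 54.3% for Psmb9. For Psmb10 they were 50.8% and 45.1%. The constitutive subunits behind these shares were Psmb5, which rose from 36.0 ± 2.33 to 49.1 ± 8.53 CPM (log2 fold change 0.44, adjusted p = 0.0459), Psmb6 (0.15, adjusted p = 0.445) and Psmb7 (0.08, adjusted p = 0.693). Of 17 alternatives, 7 called Psmb5, and none of the 6 that left out a library did so except the one without Rpl22-/- replicate 1.

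Over the 6 libraries, the 45 pairs of the 10 genes had Pearson correlations of log2 CPM from 0.31 to 0.98, with a median of 0.80. These 6 points fall into 2 genotypes, so the values mostly restate the difference between them. With the mean of each genotype removed, the median over the 45 pairs was 0.11, and 23 of the 45 were above 0. Taken as a mean of the 10 centred log2 CPM values, the Rpl22-/- libraries stood at 0.17, 0.18 and 0.16 and the Rpl22+/+ libraries at -0.17, -0.20 and -0.15. No library of either genotype therefore stood apart for the group as a whole. Among 10636 other genes with an average log2 CPM of at least 3, those most like this mean were Mrpl4 (r = 0.9965), Bbc3 (0.9912), Bcl2l12 (0.9894), Zmat3 (0.9891) and Gpr137 (0.9882), over the same 6 libraries. Mrpl4 encodes a mitochondrial ribosomal protein, and Bbc3 and Zmat3 are known targets of p53. These 5 genes were picked for likeness to a mean that differs between the genotypes, so their own rise in Rpl22-/- HSCs follows from the choice. Of them, Bbc3 (log2 fold change 1.02, adjusted p = 0.00435) and Zmat3 (2.40, adjusted p = 8.05e-08) passed the test. A link between these genes and the class I genes was not tested.

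The rest of the pathway was described by 7 lists of other genes. Of 22 other class I heavy chains, 19 had a row and 14 were tested, and the tested genes split into 8 higher and 6 lower (median log2 fold change 0.08). H2-Q7, a Qa-2 antigen of the nonclassical kind, rose from 547 ± 25.7 to 768 ± 120.0 CPM (0.49, adjusted p = 0.0194). Its libraries did not overlap, at 878, 640.2 and 785 CPM against 566, 518 and 556 CPM, although 34.94% of its 50-base windows occur in other genes, mostly H2-Q6. Cd1d1, which presents lipids rather than peptides, fell from 70.5 ± 3.38 to 53.5 ± 8.91 CPM (-0.40, adjusted p = 0.0477). The next by p-value, H2-Q5, was not called (0.34, adjusted p = 0.0913). Among the 17 alternatives, 13 called H2-Q7, 10 called Cd1d1 and 2 called H2-Q5, and the calls of the first pair were lost without any one of Rpl22-/- replicate 3 and the 3 Rpl22+/+ replicates (adjusted p of 0.0662 to 0.0940 for H2-Q7 and 0.117 to 0.151 for Cd1d1). Cd1d1 was lost without Rpl22-/- replicate 2 too (0.147).

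Peptide trimming and loading factors were 16 genes, all tested, of which 7 were higher and 9 lower (median -0.03). Tpp2, a cytosolic peptidase that trims long peptides, fell from 124 ± 11.2 to 94.3 ± 3.89 CPM (-0.39, adjusted p = 0.0203) and was called by 11 of 17 alternatives. The call was lost in the 3 settings that removed length or GC trends, where the value was as small as -0.19 (adjusted p = 0.210), and without Rpl22-/- replicate 3 (adjusted p = 0.0962), Rpl22+/+ replicate 1 (0.0925) or Rpl22+/+ replicate 2 (0.111). Calr, the chaperone calreticulin of the loading complex, was at 932 ± 153 CPM without Rpl22 and 717 ± 102 CPM with it, overlapping and not called (0.38, adjusted p = 0.0879). The aminopeptidase Npepps was not called either (-0.23, adjusted p = 0.131).

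Of 18 other proteasome subunits and assembly factors, 11 were higher and 7 lower (median 0.12). Of the 18, 1 passed, against 5.57% of all genes called in either direction. The gene that passed was Psmb2, a noncatalytic beta subunit, which rose from 88.8 ± 7.02 to 129 ± 18.1 CPM (0.54, adjusted p = 0.0107). The call held under 15 of 17 alternatives, and not without Rpl22-/- replicate 3 (0.0566) or Rpl22+/+ replicate 3 (0.0526). Psmb1, another beta subunit (0.31, adjusted p = 0.0594), and the proteasome activator Psme4 (-0.25, adjusted p = 0.111) did not pass.

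Regulators of the pathway numbered 22, with 16 higher, 6 lower and a median of 0.07. Nlrc5, the transactivator of class I genes, stood at 244, 164 and 213.5 CPM against 174, 179 and 184 CPM, so that the genotypes overlapped (0.21, adjusted p = 0.290). Of 17 alternatives only 1 called Nlrc5, the one without Rpl22-/- replicate 2 (0.36, adjusted p = 0.0448), and without Rpl22-/- replicate 1 it was at 0.08 (adjusted p = 0.641). Rela (0.22, adjusted p = 0.137) and Crebbp (0.23, adjusted p = 0.183) were not called.

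Interferon-stimulated genes were 30, of which 27 were higher and 3 lower (median 0.22). The 5 that passed all rose: Bst2, Zbp1, Irf7, Iigp1 and Gbp3. Bst2, which tethers budding viruses, was at 55.3, 55.5 and 55.3 CPM in Rpl22-/- HSCs and 39.8, 41.6 and 39.4 CPM in Rpl22+/+ HSCs (0.46, adjusted p = 0.0115). The nucleic acid sensor Zbp1 was low, at 19.4 ± 4.19 CPM against 11.6 ± 1.94 CPM (0.75, adjusted p = 0.0234), and so was the transcription factor Irf7, at 25.5 ± 4.54 CPM against 17.2 ± 1.40 CPM (0.57, adjusted p = 0.0341). Of the list, 5 genes were called with all libraries in, 2 with scaling by library size alone, 1 without Rpl22+/+ replicate 2, 3 without Rpl22+/+ replicate 3, and 0 in edgeR without Rpl22-/- replicate 3 or without Rpl22+/+ replicate 1. With all libraries in, 10 of the 30 were higher and 1 lower at an unadjusted p below 0.05, against the 11.6% of all genes higher at that level and 3.28% called higher.

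Class II molecules, which present peptides taken up from outside to CD4+ T cells, were followed by 12 genes, of which 11 were tested and 10 were higher (median 0.40). H2-DMa, H2-Ab1 and H2-Eb1 passed and rose, against 3.28% of all genes called higher. Each of the 3 had a log2 fold change above that of any class I gene, a difference that was not tested. H2-DMa, which loads peptides onto class II molecules, was at 87.8, 99.8 and 95.0 CPM in Rpl22-/- HSCs and 58.2, 54.3 and 52.6 CPM in Rpl22+/+ HSCs (0.77, standard error 0.0886, adjusted p = 0.000328), and all 17 alternatives called it. The chains H2-Ab1 (36.3 ± 7.80 against 17.1 ± 5.16 CPM) and H2-Eb1 (15.5 ± 2.98 against 7.63 ± 2.37 CPM) had log2 fold changes of 1.09 (adjusted p = 0.00753) and 1.03 (adjusted p = 0.0165). Without Rpl22-/- replicate 3 neither chain was called (adjusted p = 0.0594 and 0.0954), and H2-Eb1 was not called without Rpl22+/+ replicate 2 (0.0657). Markers of B cells and of macrophages and dendritic cells, which are known to carry much class II, were summed. The 6 B cell markers summed to 24.6 to 28.5 CPM in Rpl22-/- HSCs and 21.3 to 23.4 CPM in Rpl22+/+ HSCs, nearly all of it Cd79b, with Ms4a1 at 0. The 10 macrophage and dendritic cell markers summed to 11.1 to 17.9 CPM and 14.9 to 16.8 CPM, with Siglech at 0. For the 8 T and NK cell markers the sums were 38.3 to 45.7 CPM and 32.5 to 37.4 CPM, mostly Nkg7, with Cd3e at 0, and the part of these lists in the class I and class II values was not tested.

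**Figure D5:**
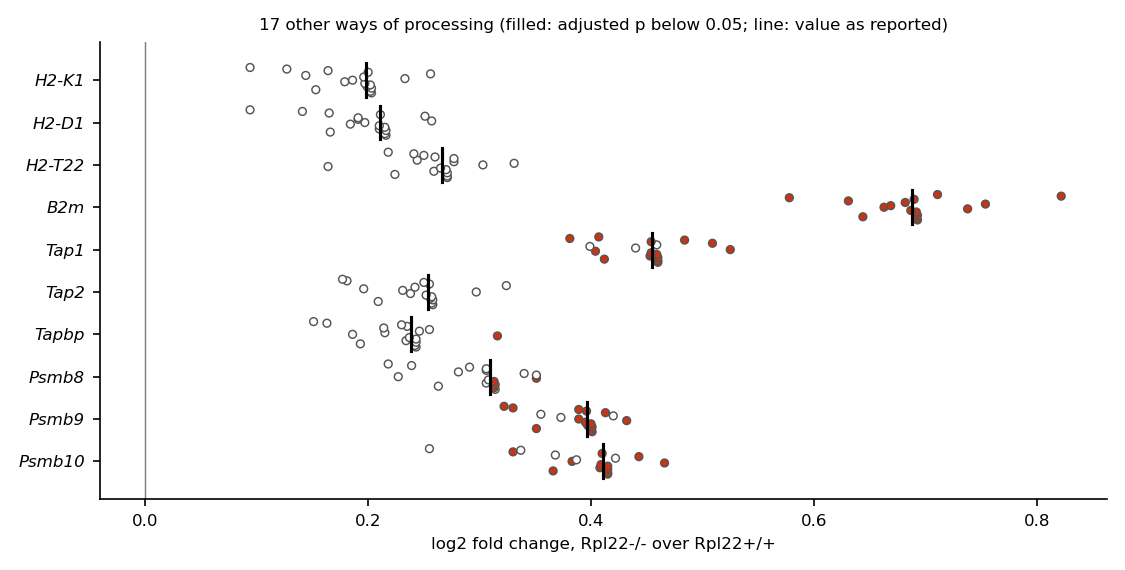
Log2 fold change of each class I gene (horizontal axis) under 17 other ways of processing the counts (points), with a line at the value given in the text and filled points where the adjusted p is below 0.05. All points lie right of 0, B2m is filled throughout, and H2-K1, H2-D1, H2-T22 and Tap2 are filled nowhere.

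Across the 17 alternatives all 10 class I genes stayed higher in Rpl22-/- HSCs. B2m was called in 17, Tap1 and Psmb9 in 14 each, Psmb10 in 12, Psmb8 in 4 and Tapbp in 1. The count of class I genes called ran from 1 (B2m alone, without Rpl22-/- replicate 3 or without Rpl22+/+ replicate 1) to 6 (without Rpl22-/- replicate 1). The count over all genes moved with the same libraries, from 127 genes without Rpl22-/- replicate 3 to 1720 without Rpl22-/- replicate 1.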

How the data were processed

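Libraries were made with a TruSeq polyA kit. Per the labels and the study's methods, the authors checked reads with FastQC, aligned them to mm10 with TopHat2 2.1.1 and deposited HTSeq read counts per gene as whole numbers, without normalization. The annotation and strand setting are not given in the sources used here. HTSeq's own totals of unassigned reads (58.6% to 60.9% of a library, including 7.49% to 8.23% not aligned uniquely) were kept out of library sizes, so reads of near-identical genes may be missing. All sample columns were used, so 0 were left out.

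From these counts, edgeR 4.0.16 (R 4.3.3) kept 14004 genes (filterByExpr, minimum count 10) and compared the genotypes with TMM factors and the quasi-likelihood test, adjusted p threshold 0.05. The standard error is the absolute log2 fold change over the root of F. Each mean rests on 3 libraries a genotype. Lengths, overlaps and shared 50-base windows came from GENCODE vM21, in which 30973 of 34573 symbols matched, and promoter sequences from RefSeq (GRCm38.p6). The tests were first tested on simulated data.

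The members and lists were chosen with earlier results of these data known. Genes named are the 10 members, the 3 smallest p-values of each list, Psmb5, Psmb6, Psmb7, Nlrc5, Rpl22 and the 5 genes most correlated with the members' mean (average log2 CPM of at least 3). Iigp1, Gbp3, the overlapping genes and the markers named fall outside this rule and were named after their values were seen. Not every gene that this rule names is reported here.

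Other scalings (RLE, upper quartile, or none beyond library size), other tools (DESeq2 1.42.0 and voom in limma 3.58.1), other filters (none, or a minimum of 10 counts in all 6 libraries), leaving out single libraries, a replicate block, and removal of length or GC trends (lowess, span 0.3; 13363 genes with both) singly or, with the block, together were tried as alternatives.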

Additional observations from a re-analysis of the deposited data

How the results depend on the processing

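Direction held for all 10 class I genes under the 17 alternatives. Psmb8 passed with upper-quartile factors (0.31, adjusted p = 0.0470), with DESeq2 (0.31, 0.0252), with no filter (0.31, 0.0209) and without Rpl22-/- replicate 1 (0.35), and Psmb10 no longer passed with GC trends removed (0.34, adjusted p = 0.0514) or with length and GC trends removed and a replicate block (0.26, 0.128). With 1 library left out, the log2 values ran from 0.63 to 0.75 for B2m, 0.40 to 0.53 for Tap1, 0.36 to 0.43 for Psmb9, 0.37 to 0.47 for Psmb10, 0.23 to 0.35 for Psmb8 and 0.19 to 0.32 for Tapbp. Counts then ran from 1 to 6 class I genes, from 127 to 1720 of all genes and from 2 to 21 genes of the 7 lists.

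The 780 genes called over the whole table became 1422 with no filter and 437 with GC trends removed, and the 14 called in the 7 lists became 23 with no filter. DESeq2 called 1057 genes and limma-voom 742. With scaling by library size alone 850 genes were called, and the share of calls that were increases was 43.4% in place of 58.8%, while with GC trends removed it was 70% (69.9% with length trends and the block as well). Psmb7 ran from -0.031 without Rpl22-/- replicate 2, against its direction, to 0.155. The cause of these shifts was not tested. Leaving out a library or removing the GC trend also left fewer samples or genes to test.

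Deviations of same-numbered samples from their genotype means correlated at -0.10, 0.05 and 0.04. These values showed no pairing by number, but with 3 samples a genotype they cannot exclude it. With the replicate block 4 class I genes and 904 genes in all were called, and the chain sum was 0.23. With 3 libraries a genotype, the exact permutation test used for the ratios within libraries cannot go below 0.1.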
